A study of Mus musculus with 12 samples.

Results

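The scavenger receptors are 9 genes chosen by name, Msr1, Marco, Cd36, Scarb1, Olr1, Cd68, Stab1, Colec12 and Lrp1, out of 41325 genes in the deposited tables, and each was found once in each table. Their mRNA was counted by sequencing in IMG, a permanent cell line derived from mouse microglia, after 8 h with an amyloid beta preparation called oAb, with one called fAb, or with a scramble control. Each group held 4 libraries, 12 in all, and all libraries came from wild type IMG cells of strain C57Bl6/J and 1 passage, so that no primary microglia and no second line were examined. The design text pairs fibrillar with oAb and oligomeric with fAb, the reverse of what the abbreviations would read, and the preparations are therefore called oAb and fAb throughout. The labels do not say whether replicates were grown separately, and p-values therefore reflect only the differences among these libraries, which could be technical.

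Scavenger receptors are surface and endosomal proteins that bind altered lipoproteins, lipids, polyanions and aggregated proteins and carry them inward for degradation. In microglia and other macrophages they are known for taking up amyloid beta and for starting inflammatory signalling on contact with it, and several of them share ligands although their folds are unrelated. They fall into classes by structure: trimers with a collagenous stalk (Msr1, Marco, Colec12), hairpin proteins with a membrane span at each end (Cd36, Scarb1), a lectin-like receptor of oxidised lipoprotein (Olr1), a mucin-like lysosomal protein (Cd68), a large receptor with fasciclin domains (Stab1), and a giant member of the LDL receptor family (Lrp1).

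The libraries held 13638721 to 18124419 counts. The cells carried the macrophage genes Csf1r, Fcer1g, Spi1 and Adgre1 at group means of 188 TPM or more (a level scaled by transcript length and library depth), whereas the microglial gene Tmem119 had a mean of 0 to 0.164 TPM. Trem2 had a mean of 37.65 TPM in oAb and 35.8 TPM in fAb cells, against 162 TPM in scramble cells. P2ry12 was at 0.978 TPM (oAb) and 0.830 TPM (fAb) against 7.16 TPM, and C1qa at 0.133 TPM (oAb) and 0.122 TPM (fAb) against 3.49 TPM. Ptprc, Cx3cr1, Adgre1 and Fcer1g had higher means in both treated groups than in scramble cells. Of the 13 macrophage and microglia markers, 10 in oAb cells, 10 in fAb cells and 12 in scramble cells had a mean of at least 1 TPM. Their summed level was 2843 to 3040 TPM in oAb libraries and 2880 to 2944 TPM in fAb libraries, against 3035 to 3197 TPM in scramble libraries. Oligodendrocyte markers summed to 13.9 to 15.3 TPM in oAb cells and 15.6 to 16.7 TPM in fAb cells, against 26.4 to 48.1 TPM in scramble cells, nearly all of it from Mbp, and 2 of these 4 markers had no count in any group. Neuronal markers summed to 1.90 to 2.31 TPM in oAb and 1.85 to 2.28 TPM in fAb libraries, against 0.139 to 0.716 TPM in scramble libraries, and fibroblast and pericyte markers to 1.72 to 2.47 TPM in oAb and 2.01 to 2.22 TPM in fAb libraries, against 0.0965 to 0.410 TPM in scramble libraries. Summed levels of astrocyte and endothelial markers stayed under 1 TPM, and the 4 markers of T and B cells had no count. Mitochondrial genes took 2.73% to 3.37% of counts in the amyloid beta libraries, against 4.18% to 4.94% in scramble libraries, and ribosomal protein genes took 4.57% to 5.12% in the amyloid beta libraries, against 6.17% to 10.3% in scramble libraries. Their part in the differences below was not tested.

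One control stood apart. Scramble library 3 gave 10.3% of its counts to genes of ribosomal proteins, where its 3 fellow controls gave 6.17% to 6.54%, and its log2 levels correlated with theirs across genes at 0.987 to 0.992, against 0.997 to 0.999 among those 3. The libraries also fell into 2 sets by a pair of genes, Timm23 and Gm10273: in oAb libraries 1 and 2 and scramble libraries 2, 3 and 4, Timm23 took 94.6% to 98.3% of the pair's counts, and in oAb libraries 3 and 4, all fAb libraries and scramble library 1 it took 17.5% to 38.5%. No label names a batch, and the sets are used below only as a technical split. In fAb against scramble, scramble library 1 is the only control in the set of the fAb libraries. A fit with the set as a term therefore compares the fAb libraries with that control alone.

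RefSeq promoters (GRCm38.p6, 250 bases before to 50 after the annotated start) were at hand for 6 of the 9 receptors. Those of Marco and Olr1 are shown because both transcripts were counted only in amyloid beta libraries, Cd36 because it rose, and Lrp1 because it fell. All 4 lie on the minus strand and are written 5′ to 3′ along it: Marco at chr1:120504975-120505274, Olr1 at chr6:129507116-129507415, Cd36 at chr5:17835847-17836146 and Lrp1 at chr10:127621099-127621398. Capitals mark matches to the motifs searched.
Marco: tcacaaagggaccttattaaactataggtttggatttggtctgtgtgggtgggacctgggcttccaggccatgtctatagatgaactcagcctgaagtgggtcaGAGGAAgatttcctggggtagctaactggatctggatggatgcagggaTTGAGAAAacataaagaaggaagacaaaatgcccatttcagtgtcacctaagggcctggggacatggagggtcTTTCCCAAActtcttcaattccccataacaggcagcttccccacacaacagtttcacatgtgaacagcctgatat
Olr1: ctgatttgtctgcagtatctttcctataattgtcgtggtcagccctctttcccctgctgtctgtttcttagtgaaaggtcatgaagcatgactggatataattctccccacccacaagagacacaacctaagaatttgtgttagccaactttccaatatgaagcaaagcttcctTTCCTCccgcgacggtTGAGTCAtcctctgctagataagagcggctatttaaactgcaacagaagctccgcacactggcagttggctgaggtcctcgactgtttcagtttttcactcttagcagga
Cd36: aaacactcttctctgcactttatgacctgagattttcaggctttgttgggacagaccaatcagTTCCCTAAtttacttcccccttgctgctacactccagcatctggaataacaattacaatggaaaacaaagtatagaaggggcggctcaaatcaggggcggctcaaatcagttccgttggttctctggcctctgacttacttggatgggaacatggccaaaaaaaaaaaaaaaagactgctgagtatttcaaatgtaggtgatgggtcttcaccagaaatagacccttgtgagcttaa
Lrp1: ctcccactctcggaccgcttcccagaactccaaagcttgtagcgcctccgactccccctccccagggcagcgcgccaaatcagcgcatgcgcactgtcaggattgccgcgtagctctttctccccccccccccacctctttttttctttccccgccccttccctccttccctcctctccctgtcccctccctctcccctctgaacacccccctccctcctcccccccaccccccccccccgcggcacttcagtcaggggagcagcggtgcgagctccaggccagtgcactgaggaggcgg

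The motifs were those of factors known from macrophage genes, searched on both strands: AP-1 (TGANTCA), the PU.1 and ETS core (GAGGAA), C/EBP (TTNNGNAA), the interferon response element, the TATA box (TATAAA) and the NF-kB site. Positions count from the start site as 0. Olr1 holds an AP-1 match at -60 and an ETS core at -76, and Marco an ETS core at -146 and C/EBP matches at -98, -25 and -24, the last 2 of which overlap. The Cd36 promoter, which starts inside the gene's outer span, holds a C/EBP match at -187, and the Lrp1 promoter holds none of the 6 motifs. Cd68 has 2 AP-1 matches (-149 and -24), 2 ETS cores and 3 C/EBP matches, and Stab1 1 ETS core at -30. The AP-1 letters are found in 7.81% of the 32851 promoters of the table, the ETS core in 28.3%, C/EBP in 40.7%, the interferon element in 3.44%, TATAAA in 13.6% and NF-kB in 8.46%, and the last 3 have no match in the 6 receptors' windows. The GC content was 67.7% for Lrp1, with an observed over expected CpG ratio of 0.59, against 43% to 57.3% for the other 5, and Marco has no CpG in its 300 bases. The median over the table was 52.7% GC and a CpG ratio of 0.384.

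In cells treated with amyloid beta, Msr1 was about 5-fold higher than in scramble cells, Cd36 and Stab1 rose less, and Colec12 and Lrp1 fell. Marco and Olr1 were counted at a few reads in each treated library and in no control. Scarb1 and Cd68 did not pass the test. No receptor passed the test between the 2 preparations. Counts were tested across all genes with edgeR's quasi-likelihood test, and a gene is called where its Benjamini-Hochberg adjusted p is under 0.05. Of the 9 receptors, 7 passed the filter on low counts, with at least 72 counts in every library, and 5 of these were called in oAb against scramble, 3 higher and 2 lower, as well as in fAb against scramble. With each library left out in turn, Lrp1 was called in 1 of 8 fits for oAb and 3 of 8 for fAb. Stab1 was called in 3 of 8 for oAb, and the other calls held in all 8. Calls were common: 52.2% of the 11033 genes tested were called in oAb against scramble, 25.2% higher and 27.0% lower, and 56.3% of 11074 in fAb against scramble, 27.6% higher and 28.8% lower. Under upper quartile scaling, in place of the trimmed mean of M-values, 2127 genes were higher and 4015 lower in oAb against scramble, in place of 2777 and 2984, and in fAb against scramble 2273 and 4361, in place of 3051 and 3184. The receptors' median log2 fold change was 0.03 in oAb against scramble, where that of all genes tested was -0.07, and 0.06 in fAb against scramble, where it was -0.04. Both comparisons use the same 4 scramble libraries. In RNA from whole cultures, fewer cells expressing a gene and less RNA per cell cannot be told apart.

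**Figure D1:**
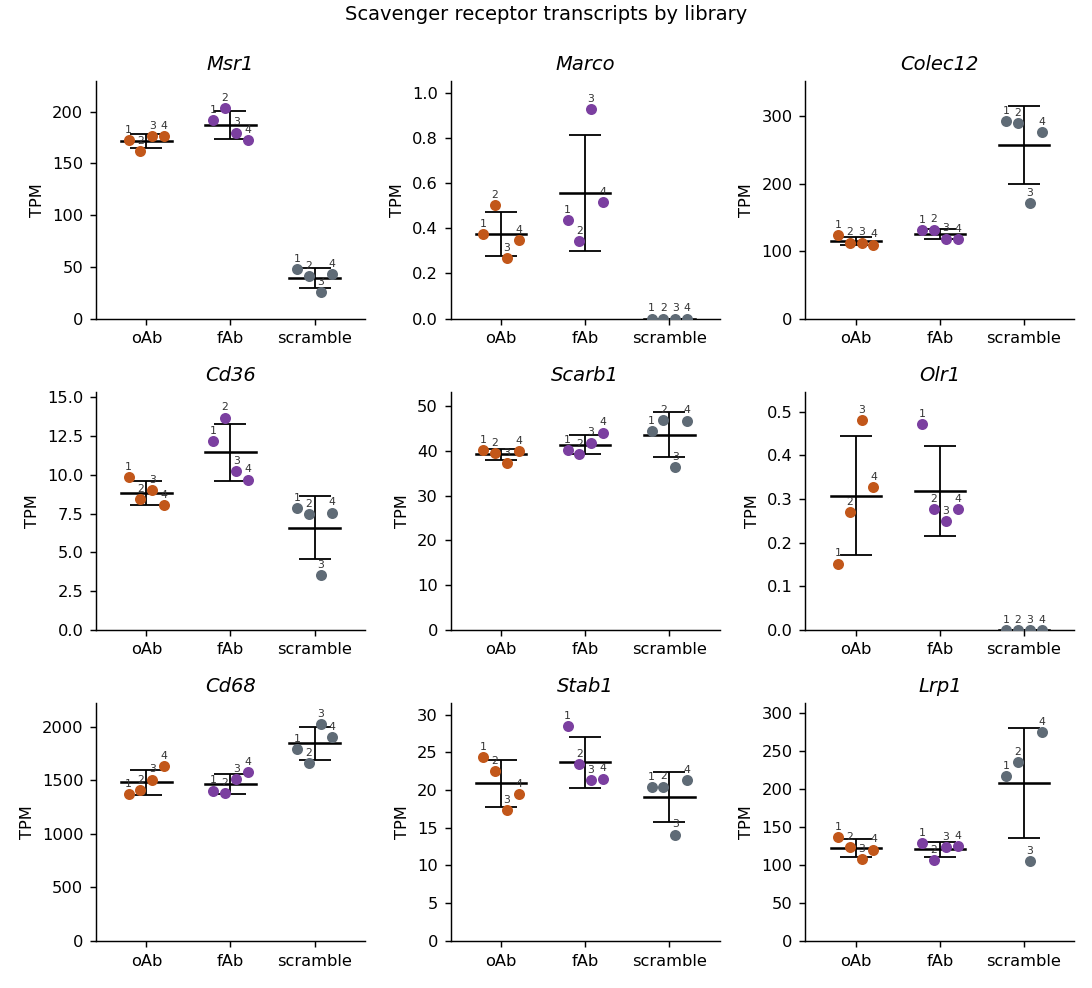
Level of each receptor (TPM, linear axes from 0) in the 4 oAb, 4 fAb and 4 scramble libraries. Points are libraries with their replicate number, the long bar is the mean and the whiskers 1 SD. Msr1 stands at 162 to 204 TPM in treated libraries against 25.3 to 48.0 in scramble libraries, and library 3 is the lowest scramble library for Msr1, Cd36, Scarb1, Stab1, Colec12 and Lrp1.

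The receptors differed widely in level. Cd68 was the most abundant in every group, and its mean gave 75.5% of the receptors' summed TPM in oAb cells, 74.2% in fAb cells and 76.3% in scramble cells. In oAb cells Msr1 followed, then Lrp1 and Colec12, whose ranges overlapped, then Scarb1, Stab1 and Cd36, each without overlap with the next, and last Marco and Olr1, which overlapped. The order in fAb cells was the same but for Colec12 and Lrp1, which overlapped there too. In scramble cells Colec12 and Lrp1 came next with overlapping ranges, and Scarb1 and Msr1, which overlapped, came after them. Among all genes with a level above 0, Msr1 was at rank 846 in oAb cells and 771 in fAb cells, against 3362 in scramble cells.

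Msr1 (ENSMUSG00000025044, chr8:39581685-39642673, minus strand, build mm10 as for all positions in the files) encodes the class A receptor that takes up acetylated and oxidised lipoprotein and binds aggregated amyloid beta. It was at 172, 162, 177 and 177 TPM in oAb libraries 1 to 4 and at 192, 204, 180 and 172 TPM in fAb libraries, against 48.0, 40.9, 25.3 and 43.4 TPM in scramble libraries. Every treated library was above every scramble library, and the lowest treated value was over 3 times the highest control. The log2 fold change was 2.33 ± 0.12 (SE, n = 4 per group; edgeR adjusted p = 2.742e-07) for oAb, a fold of 5.04 with a 95% interval of 4.19 to 6.07. For fAb it was 2.41 ± 0.11 (edgeR adjusted p = 1.858e-07), a fold of 5.30 with an interval of 4.45 to 6.31.

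Marco (ENSMUSG00000026390, chr1:120474538-120505024, minus strand) encodes a related receptor that binds bacteria and particles through its cysteine-rich domain. It had 4, 5, 3 and 4 counts in oAb libraries and 5, 4, 10 and 6 counts in fAb libraries, against 0 in all 4 scramble libraries. These counts missed the filter, so the gene was set against a floor of 3 counts over the whole scramble group, which allows up to 0.0513 depth-scaled counts (CPM) there. Marco's level was 4.85 times that limit in oAb cells and 7.00 times in fAb cells. The counts of the treated libraries were taken as exact, so these folds are not lower bounds. An exact two-sided permutation test of log2(TPM + 0.1) gave p = 0.02857 in both comparisons, the smallest that 4 against 4 libraries allow, and 0.05714, the smallest for 3 against 4, when any 1 library was left out. It was 1 of 6 such tests, whose p-values were not adjusted. In an edgeR fit with no filter on low counts, the adjusted p was 0.002629 for oAb and 0.00195 for fAb. The floor covers counting error of the scramble group only, and exact intervals cover counting error only.

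Colec12 (ENSMUSG00000036103, chr18:9707648-9877995, plus strand) encodes a collagenous receptor that ends in a C-type lectin domain and binds sugars and oxidised lipoprotein. It was at 123, 113, 112 and 109.7 TPM in oAb libraries and at 132, 132, 119 and 118 TPM in fAb libraries, against 293, 289.6, 171 and 277 TPM in scramble libraries. The treated libraries lay below every control, scramble library 3 being the nearest. The log2 fold change was -0.96 ± 0.10 (edgeR adjusted p = 3.212e-05) for oAb, a level of 0.513 of the control, and -0.89 ± 0.09 (edgeR adjusted p = 3.895e-05) for fAb, a level of 0.541 of the control. Of its 50-base words, 3.89% occur in other genes, so a small part of its counts is uncertain.

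Cd36 (ENSMUSG00000002944, chr5:17781690-17888801, minus strand) encodes the class B receptor of long-chain fatty acids, oxidised lipoprotein and thrombospondin, which signals for amyloid beta together with Tlr4 and Tlr6. It was at 9.86, 8.43, 8.99 and 8.05 TPM in oAb libraries and at 12.2, 13.7, 10.2 and 9.69 TPM in fAb libraries, against 7.83, 7.45, 3.53 and 7.56 TPM in scramble libraries. The groups did not overlap, although the lowest oAb library was only just above the highest scramble library. Cd36 rose by a log2 fold change of 0.64 ± 0.17 in oAb cells (edgeR adjusted p = 0.01051; fold 1.55, 95% interval 1.20 to 2.02). In fAb cells it rose by 0.96 ± 0.17 (edgeR adjusted p = 0.001286; fold 1.94, interval 1.48 to 2.55). With the library set as a term in the fit, the fAb value was 0.85 and the call was lost (edgeR adjusted p = 0.05144). That value sets the fAb libraries against scramble library 1 alone. Among the 5 libraries of the Timm23 set the oAb value was 0.72 (edgeR adjusted p = 0.07745).

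Scarb1 (ENSMUSG00000037936, chr5:125277087-125341094, minus strand) encodes the other class B receptor, which takes cholesteryl esters from high density lipoprotein. It was at 40.1, 39.4, 37.3 and 39.97 TPM in oAb libraries and at 40.1, 39.2, 41.8 and 44.03 TPM in fAb libraries, against 44.4, 46.9, 36.4 and 46.7 TPM in scramble libraries. The groups overlapped through scramble library 3, the lowest of all 12 libraries. The log2 fold change was 0.03 ± 0.08 for oAb (edgeR adjusted p = 0.7503; 95% interval -0.15 to 0.21) and 0.06 ± 0.09 for fAb (edgeR adjusted p = 0.5882; interval -0.14 to 0.27). Its sign turns under upper quartile scaling, to -0.14 for oAb and -0.13 for fAb, a scaling that moves the median of all genes to -0.24 for oAb and to -0.23 for fAb.

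Olr1 (ENSMUSG00000030162, chr6:129485244-129507165, minus strand) encodes LOX-1, the lectin-like receptor of oxidised lipoprotein best known from endothelium and activated macrophages. It had 3, 5, 10 and 7 counts in oAb libraries and 10, 6, 5 and 6 counts in fAb libraries, against 0 in all 4 scramble libraries. Its level was 7.58 times the floor of 3 counts over the scramble group in oAb cells and 7.56 times in fAb cells, its own counts taken as exact. The exact permutation p was 0.02857 in both comparisons and 0.05714 when any 1 library was left out. In the edgeR fit with no filter the adjusted p was 0.001788 for oAb and 0.0009084 for fAb. The AP-1 and ETS letters in its promoter, printed above, are a description of the sequence and not of binding.

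Cd68 (ENSMUSG00000018774, chr11:69664213-69666153, minus strand) encodes macrosialin, a glycoprotein of late endosomes and lysosomes that is used as a macrophage marker. It was at 1375, 1409, 1508 and 1632 TPM in oAb libraries and at 1403, 1378, 1509.5 and 1576 TPM in fAb libraries, against 1795, 1665, 2023 and 1903 TPM in scramble libraries. On the TPM scale all treated libraries lay below all controls. On counts scaled between libraries the log2 fold change was -0.16 ± 0.16 for oAb (edgeR adjusted p = 0.432; 95% interval -0.52 to 0.20) and -0.22 ± 0.16 for fAb (edgeR adjusted p = 0.2748; interval -0.59 to 0.15), so no change was called. Without scramble library 3, in which Cd68 was highest, it was 0.01 for oAb and -0.05 for fAb. Between the 2 oAb libraries and the 1 scramble library of the Gm10273 set, the oAb value was 0.20 (edgeR adjusted p = 0.02736), a p in which the lone control is assumed to vary like the oAb libraries.

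Stab1 (ENSMUSG00000042286, chr14:31139013-31168641, minus strand) encodes stabilin-1, an endocytic receptor of macrophages and sinusoidal endothelium that takes up SPARC and modified lipoprotein. It was at 24.3, 22.5, 17.3 and 19.4 TPM in oAb libraries and at 28.4, 23.4, 21.3 and 21.5 TPM in fAb libraries, against 20.4, 20.4, 14.1 and 21.3 TPM in scramble libraries. On the TPM scale the oAb libraries overlapped the controls widely, and the lowest fAb library was level with the highest control. On scaled counts Stab1 rose by a log2 fold change of 0.33 ± 0.11 in oAb cells (edgeR adjusted p = 0.03624) and by 0.46 ± 0.10 in fAb cells (edgeR adjusted p = 0.004828). The oAb call was lost under upper quartile scaling (0.16, adjusted p = 0.2517) and when any of 5 libraries was left out, oAb library 1 (adjusted p = 0.1114), 2 (0.09806) or 4 (0.05536) or scramble library 1 (0.06934) or 2 (0.07734), all in edgeR. The fAb call held when each library was left out, and with the library set as a term it was lost (0.52, edgeR adjusted p = 0.05186). The latter value again sets the fAb libraries against scramble library 1 alone.

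Lrp1 (ENSMUSG00000040249, chr10:127538161-127621148, minus strand) encodes the large endocytic receptor of apolipoprotein E, alpha-2-macroglobulin and protease-inhibitor complexes, which also binds amyloid beta. It was at 136, 123, 108 and 120.3 TPM in oAb libraries and at 129, 106, 123 and 124 TPM in fAb libraries, against 217, 235, 106 and 275 TPM in scramble libraries. Scramble library 3 lay below every treated library and the other 3 controls lay above all of them. Lrp1 fell by a log2 fold change of 0.56 ± 0.19 in oAb cells (edgeR adjusted p = 0.03737) and by 0.61 ± 0.20 in fAb cells (edgeR adjusted p = 0.02502). Without scramble library 3 the change was -0.72 for oAb (edgeR adjusted p = 0.0001542) and -0.77 for fAb (edgeR adjusted p = 0.0003916). The oAb call was lost when any library other than that one was left out, at edgeR adjusted p of 0.05352 to 0.1044, the highest without scramble library 4. The fAb call was lost without fAb library 1 (adjusted p = 0.05432), 2 (0.07009) or 3 (0.05209) or without scramble library 2 (0.05496) or 4 (0.06834), all in edgeR. With the library set as a term the edgeR adjusted p was 0.06432 for oAb and 0.2195 for fAb, where scramble library 1 is the only control compared.

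**Figure D2:**
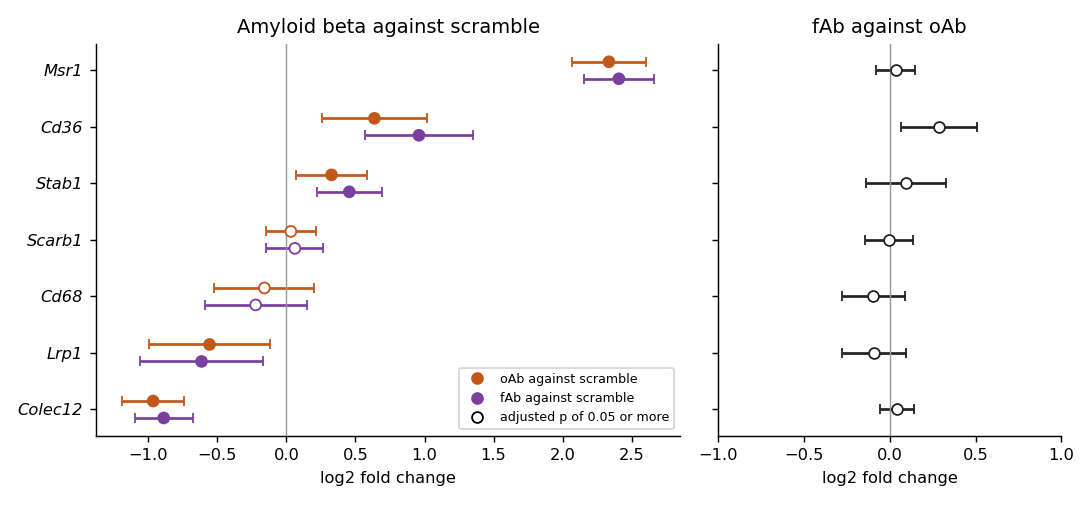
Log2 fold change of the 7 receptors tested (x axis), with 95% intervals, for oAb and fAb against scramble on the left and for fAb against oAb on the right. Filled points have an edgeR adjusted p under 0.05. Msr1, Cd36 and Stab1 lie above 0 and Lrp1 and Colec12 below 0 for both preparations, and every point on the right is open.

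Between the 2 preparations no receptor was called. Among the 7 receptors tested Cd36 had the largest difference, with a mean of 11.4 ± 1.84 TPM in fAb cells and 8.84 ± 0.79 TPM in oAb cells (SD, n = 4 each) and overlapping ranges. Its log2 fold change was 0.29 ± 0.10, with a 95% interval of 0.07 to 0.51, an unadjusted p of 0.0157 and an edgeR adjusted p of 0.375, and it lay between 0.22 and 0.34 when each library was left out. Msr1 differed by 0.04 (95% interval -0.08 to 0.15), Colec12 by 0.04 (-0.06 to 0.14), Stab1 by 0.10 (-0.14 to 0.33), Scarb1 by -0.00 (-0.14 to 0.14), Lrp1 by -0.09 (-0.28 to 0.09) and Cd68 by -0.09 (-0.28 to 0.09). Marco had 25 counts in fAb cells and 16 in oAb cells, a depth-scaled ratio of 1.44 with an exact 95% interval of 0.741 to 2.89. Olr1 had 27 counts in fAb cells and 25 in oAb cells, a ratio of 0.998 with an interval of 0.558 to 1.79. Of the 10878 genes tested between the preparations, 0 (0.0%) were called by edgeR, 1391 (12.8%) had an unadjusted p under 0.05, and DESeq2 called 16, none of them a receptor. The intervals of the 7 receptors tested bound their differences, whereas those of Marco and Olr1 cover counting error only and leave out the spread between libraries. None of them shows that the preparations act alike.

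By TPM, 4 of the 7 receptors tested had no overlap between oAb and scramble libraries, and the same number between fAb and scramble libraries: Msr1, Cd36, Cd68 and Colec12. The share over all genes tested was 49.8% for oAb against scramble, 52.7% for fAb against scramble and 9.6% for fAb against oAb, where it was 0 of 7 receptors.

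**Figure D3:**
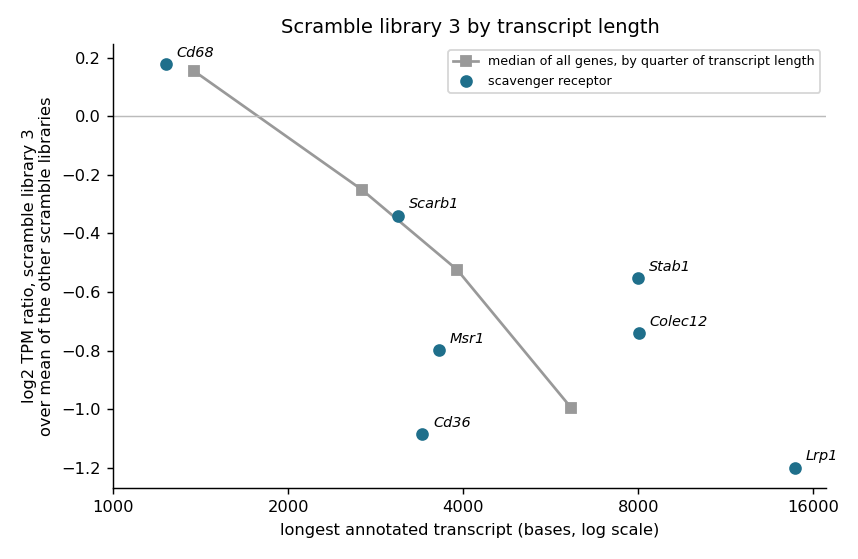
Log2 ratio of TPM in scramble library 3 over the mean of the other 3 scramble libraries (y axis) against the longest annotated transcript (bases, log scale). Squares are medians of all genes with a mean of at least 1 TPM, in 4 equal bins of transcript length, and run from 0.155 in the shortest to -0.995 in the longest bin; circles are the receptors.

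The deviation of scramble library 3 touched most receptors. Its level over the mean of the other controls, on the log2 scale of TPM, was -1.20 for Lrp1, -1.09 for Cd36, -0.80 for Msr1, -0.74 for Colec12, -0.55 for Stab1 and -0.34 for Scarb1, and 0.18 for Cd68. Over 10768 genes the median was -0.39, and it was 0.155, -0.251, -0.525 and -0.995 in 4 equal bins of increasing transcript length. Lrp1 has the longest transcript of the receptors, 14888 bases, and Cd68 the shortest, 1230 bases. Cd36 and Msr1 lay below the medians of the bins nearest to their lengths of 3399 and 3636 bases, and Stab1 (7999 bases) and Colec12 (8024 bases) lay above that of the longest bin. Without this library the log2 fold changes in oAb against scramble were 2.25 for Msr1, 0.50 for Cd36, 0.29 for Stab1 and -1.04 for Colec12, all still called. In fAb against scramble they were 2.32 for Msr1, 0.82 for Cd36, 0.43 for Stab1 and -0.96 for Colec12, all still called.

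**Figure D4:**
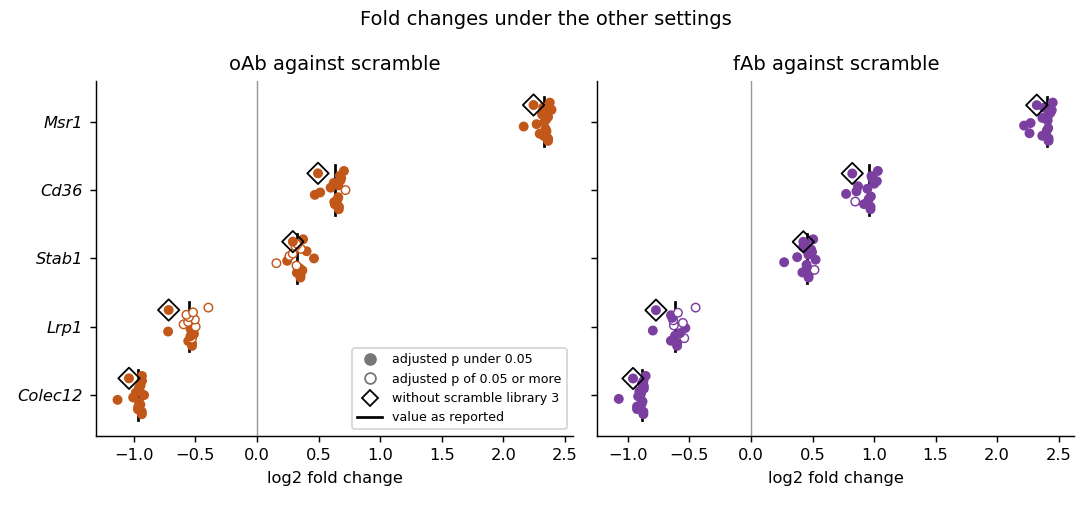
Log2 fold change (x axis) of the 5 called receptors under each other setting, oAb against scramble on the left and fAb against scramble on the right. Each circle is a setting, filled where the adjusted p is under 0.05, the diamond marks the fit without scramble library 3 and the bar the value as reported. No circle crosses 0; open circles gather at Lrp1 and at Stab1 in oAb against scramble.

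In oAb against scramble, Msr1 (log2 fold change 2.17 to 2.39) and Colec12 (-1.13 to -0.92) were called under all 17 settings tried, Cd36 under 16, Stab1 under 10 and Lrp1 under 8. In fAb against scramble, Msr1 (2.22 to 2.45) and Colec12 (-1.07 to -0.86) were called under all 16 settings, Cd36 and Stab1 under 15 and Lrp1 under 10. Within the library sets, chosen after seeing the data, Msr1 in oAb against scramble was at 2.33 (Timm23 set) and 2.27 (Gm10273 set), Colec12 at -0.92 (Timm23 set) and -1.01 (Gm10273 set), Cd36 at 0.72 (Timm23 set) and 0.51 (Gm10273 set), Stab1 at 0.46 (Timm23 set) and 0.24 (Gm10273 set) and Lrp1 at -0.50 (Timm23 set) and -0.54 (Gm10273 set). In fAb against scramble within the Gm10273 set, Msr1 was at 2.27, Cd36 at 0.86, Stab1 at 0.53, Colec12 at -0.92 and Lrp1 at -0.53. The Gm10273 set, whose fits are among the settings counted, holds 1 scramble library, so that its p-values have no spread among controls and assume that the lone library varies like the treated ones.

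Genes that work with the receptors were read from 8 lists, and their counts stand beside the 25.2% higher and 27.0% lower of all genes in oAb against scramble and the 27.6% and 28.8% in fAb against scramble. Among the other scavenger receptors, 5 rose and 4 fell of the 9 tested, with either preparation. Cd44, the receptor of hyaluronan, rose by 2.03 ± 0.15 with oAb and 2.11 ± 0.13 with fAb (log2 fold change ± SE, as for all genes below). Clec7a, the beta-glucan receptor Dectin-1, changed by -1.72 ± 0.15 with oAb and -1.65 ± 0.10 with fAb. In the LDL receptor family and the VPS10 sorting receptors, 6 rose and 2 fell of 12 with oAb, and 7 rose and 2 fell with fAb. Lrp12 rose by 2.12 ± 0.16 with oAb and 2.27 ± 0.15 with fAb, and Sort1, the sorting receptor sortilin, changed by -2.06 ± 0.15 with oAb and -1.90 ± 0.14 with fAb. Sort1 fell to a mean of 2.56 TPM in oAb cells and 2.94 TPM in fAb cells, against 12.3 TPM in scramble cells.

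Of the ligands and soluble partners, 11 rose and 5 fell of the 16 tested in each comparison with scramble, with a median log2 fold change of 1.10 for oAb and 1.16 for fAb. C1qa and C1qc, among those that fell, missed the filter on low counts between the preparations. They passed it only together with the scramble libraries, where they are high, so their direction follows from the filter. Hspa5, the chaperone BiP of the endoplasmic reticulum, rose by 1.66 ± 0.10 with oAb and 1.74 ± 0.09 with fAb. Of the coreceptors and signalling partners, 10 rose and 8 fell of 20 with either preparation. The tyrosine kinase Src was at 18.8 TPM in oAb cells and 18.3 TPM in fAb cells, against 0.549 TPM in scramble cells, a log2 fold change of 5.26 ± 0.23 with oAb and 5.17 ± 0.24 with fAb, and the kinase Syk rose by 1.90 ± 0.11 with oAb and 1.86 ± 0.09 with fAb.

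**Figure D5:**
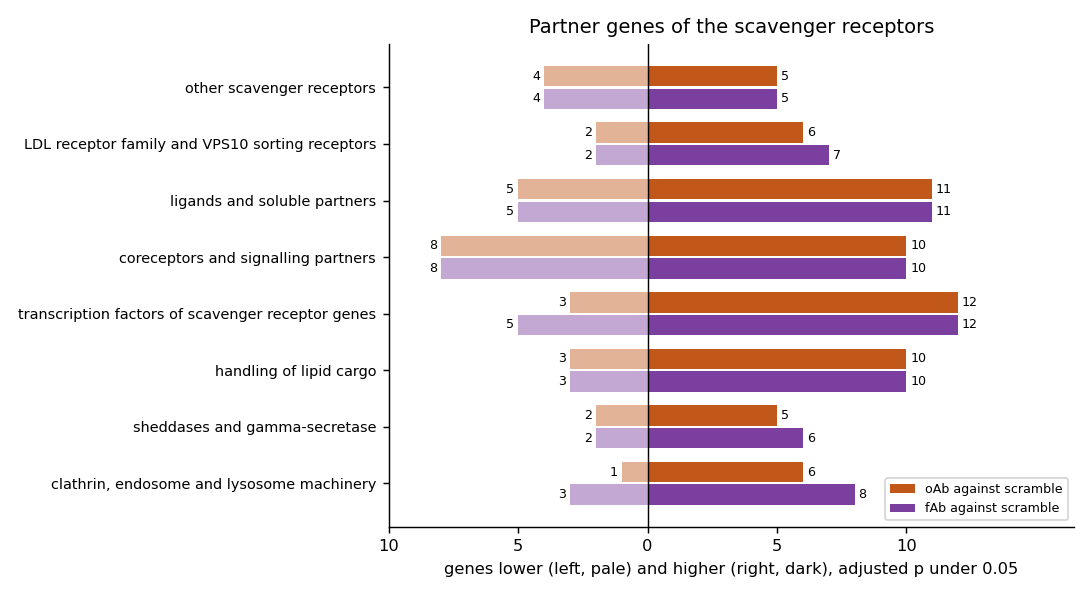
Number of genes of each list that were higher (bars to the right, dark) and lower (bars to the left, pale) than in scramble cells, at an edgeR adjusted p under 0.05. In each list the upper pair of bars is oAb and the lower pair fAb; ligands and soluble partners have 11 higher and 5 lower with both.

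Of the transcription factors known to act on scavenger receptor genes, 12 rose with either preparation, and 3 fell with oAb and 5 with fAb, of 26 tested. Rxra, among those that fell with fAb, likewise passed the filter only together with the scramble libraries. Ets2, a factor of the ETS family, rose by 3.00 ± 0.09 with oAb and 2.99 ± 0.09 with fAb. In the handling of lipid cargo, 10 rose and 3 fell of 17 in each comparison, among them Acsl1, which activates long-chain fatty acids (2.89 ± 0.14 with oAb and 2.91 ± 0.12 with fAb), and Hilpda, a lipid droplet protein (1.75 ± 0.15 with oAb and 1.75 ± 0.15 with fAb). In the list named for the sheddases and the gamma-secretase, which cut receptors at the membrane, 5 rose and 2 fell of 10 with oAb, and 6 rose and 2 fell of 11 with fAb. Not every gene of that list encodes a cutting enzyme, and Rhbdf2, counted as higher with both preparations, does not. The higher fAb totals come from Mmp14, which missed the filter on low counts in oAb against scramble. Mmp14 passed it in fAb against scramble through the fAb libraries, where it is high, so its direction there follows from the filter. Between fAb and oAb, Mmp14 differed by 0.22 ± 0.26 (edgeR adjusted p = 0.7115). Adam8 rose by 1.24 ± 0.09 with oAb and 1.20 ± 0.08 with fAb, and Adam17, a sheddase of many receptors, by 1.12 ± 0.14 with oAb and 1.23 ± 0.13 with fAb. In the clathrin, endosome and lysosome machinery, 6 rose and 1 fell of 20 with oAb, and 8 rose and 3 fell with fAb. Cav1, the coat protein of caveolae, rose by 3.46 ± 0.40 with oAb and 3.47 ± 0.37 with fAb, and Lamp2, a lysosomal membrane protein, by 0.92 ± 0.15 with oAb and 0.98 ± 0.15 with fAb. The named genes of the lists were picked for the smallest adjusted p in these same comparisons, so small values follow from the choice. The largest edgeR adjusted p among them was 0.0008064, for Lamp2 in oAb cells.

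The genes most like each called receptor were found among 9779 genes, by the root mean square difference over the 12 libraries of log2 CPM (depth-scaled counts) centred on the scramble mean. Nearest to Msr1 were Ptafr, the receptor of platelet activating factor, at 0.0723, and Tent5a at 0.0789, where the median over all genes was 1.98. For Colec12 they were Dcaf8 at 0.0696 and Ptpra, a receptor tyrosine phosphatase, at 0.0700, with a median of 0.811. Nearest to Cd36 were Morc3 at 0.108 and Tapt1 at 0.109 (median 0.806), to Stab1 Kctd3 at 0.109 and Ndfip2 at 0.110 (median 0.533), and to Lrp1 Phf2 at 0.113 and Soga1 at 0.12 (median 0.617). A small value is a description of similar levels in the same libraries, which also share their depth and the deviation of scramble library 3.

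The authors' deposited table, made with a test that the sources used here do not name, lists 5 receptors below an adjusted p of 0.05 for oAb among 4926 genes, and 6 for fAb among 5597. The authors' deposited table differs from the counts above at Olr1, with an adjusted p of 0.04897 for oAb and 0.04832 for fAb, and at Stab1, with 0.2789 for oAb. For Marco, the authors' deposited table gives 0.1006 for oAb and 0.0565 for fAb.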

How the data were processed

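Libraries of IMG cell RNA were prepared by a stranded mRNA method, per the labels' protocols. The submitters' processing notes name mm10 as the build. The aligner, the counter and the strand setting were not given in the sources used here. Of the 2 tables that the authors deposited, each has the scramble libraries and 1 preparation, and the scramble counts in them are identical. Per the file headers they hold counts per gene, RPKM and TPM for each library, a column named CPM, taken as a signal on a normalised library size and not used, and the authors' signed fold change (a score), log2 fold change, p-value and adjusted p-value. Only counts and TPM were analysed; the authors' statistics are given where named.

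The 9 receptors and the 8 gene lists were chosen with earlier results of these data known. Counts were tested in edgeR 4.0.16 (R 4.3.3) on the 8 libraries of each comparison, with filterByExpr at a minimum count of 10, TMM scaling, robust quasi-likelihood fits, two-sided F tests and Benjamini-Hochberg adjustment over all genes tested at 0.05. The tests were also run on simulated counts, in which far fewer genes changed than were called against scramble and no library deviated as scramble library 3 did. That run does not cover such conditions, and its results are not given. Receptors that missed the filter were tested by exact permutation of log2(TPM + 0.1) and set against a floor of 3 counts. Depth, 13638721 to 18124419 counts per library, limits precision mainly at Marco and Olr1. Named genes are all receptors, the 2 genes of each list with the smallest value of the larger of their adjusted p-values in the comparisons with scramble, leaving out genes already named, and the 2 genes nearest to each called receptor among those with a mean of at least 2 CPM (prior count 2), leaving out predicted genes. Of the genes so chosen from the lists, 2 are not reported here. Overlaps, 50-base words and transcript lengths come from GENCODE M21, which holds 41297 of the 41325 identifiers. No 2 libraries of a group agreed within sampling noise (chi-square over its degrees of freedom, 2.97 to 143).

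Groups come from the labels' titles. The reported fits do not pair libraries by replicate number. Correlations of same-numbered fAb and scramble libraries' deviations from their group means were 0.153, 0.127, 0.261 and 0.138. Libraries of unlike number were not compared, so these values do not settle whether the numbers pair libraries. Other settings tried were upper quartile scaling, DESeq2 size factors, DESeq2 1.42.0, no filter, a replicate block, all 12 libraries in 1 fit, the library set as a term, and leaving out each library; the fits within a library set were chosen after seeing the data. Protein sequences and the promoters of Msr1, Scarb1 and Colec12 are not used here.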

Additional observations from a re-analysis of the deposited data

Results flagged for a closer look

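A library was taken as far from its group where the gap to its nearest neighbour was a large part of the group's range, by Dixon's test at the 95% level for 4 libraries. Of 25 groups of libraries checked, 4 met this, and chance flags about 1 in 20 groups. For 3 of them the library was scramble library 3: Cd36 at 3.53 TPM (3.535, with a gap of 0.912 of the range), Stab1 at 14.1 TPM (0.866) and Colec12 at 171 TPM (171.4, 0.868), each the lowest of the scramble libraries. The other was the highest fAb library of Olr1, at 0.471 TPM (0.4712, with a gap of 0.877), which was fAb library 1 with 10 counts beside 5 or 6 in the others.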

How the results depend on the processing

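Called receptors kept their direction under every setting tried. The number of receptors called was 3 to 5 in oAb against scramble, 4 to 5 in fAb against scramble and 0 to 0 in fAb against oAb when each library was left out, and the genes called were 4962 to 7174, 5517 to 7598 and 0 to 0. Within the Timm23 set, chosen after seeing the data, oAb against scramble had 3792 genes and 3 receptors called, in a fit with fewer libraries. With the library set as a term, fAb against scramble had 3844 genes and 2 receptors called, Msr1 and Colec12. That term takes a degree of freedom and leaves scramble library 1 as the only control with which the fAb libraries are compared. With the same term, oAb against scramble had 5734 genes called. DESeq2 called 16 genes between the preparations. The receptors not called changed sign at small values. Scarb1 was at -0.137 (oAb) and -0.125 (fAb) under upper quartile scaling, at -0.001 for oAb within the Timm23 set and at -0.006 to 0.054 with each library left out. Between the preparations Scarb1 was at 0.001 with DESeq2 size factors and with DESeq2, 0.015 under upper quartile scaling, 0.008 with no filter, 0.000 with the library set as a term, 0.010 within the Gm10273 set and -0.055 to 0.048 with each library left out. Cd68 was at 0.198 within the Gm10273 set and -0.242 to 0.010 with each library left out for oAb, and at 0.016 with the library set as a term and 0.024 within the Gm10273 set for fAb. Msr1 between the preparations was at -0.019 with the library set as a term and -0.009 within the Gm10273 set, and the Olr1 difference on the log2(TPM + 0.1) scale was -0.1366 to 0.2655 with each library left out. With the replicate block, 6292 genes and 5 receptors were called in fAb against scramble, and the block changed no receptor's call there. Correlations of same-numbered libraries had both signs in the other comparisons, -0.290 to 0.079 for oAb against scramble and -0.298 to 0.376 for fAb against oAb. There, with the replicate block, 5081 genes and 4 receptors were called in oAb against scramble, without Stab1 (0.32, edgeR adjusted p = 0.06611), and 0 genes in fAb against oAb. The causes of these differences were not tested. Marco and Olr1, at 10 counts or fewer, rest on too few reads for a finer comparison.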

Other observations

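The genes in these paragraphs come from the same 8 lists and were chosen after their values were seen. Partners of Cd36 did not move one way: Thbs1, the thrombospondin that Cd36 binds, rose by 3.52 ± 0.23 on the log2 scale with oAb and 3.49 ± 0.23 with fAb, and Tlr6 rose by 0.96 ± 0.15 with oAb and 1.02 ± 0.14 with fAb, whereas Tlr4 changed by -1.28 ± 0.26 with oAb and -1.07 ± 0.26 with fAb. Around Lrp1, the lipase Lpl rose by 1.16 ± 0.14 with oAb and 1.32 ± 0.12 with fAb, the chaperone Lrpap1, which escorts LDL family receptors to the surface, by 0.65 ± 0.13 with oAb and 0.61 ± 0.14 with fAb, and Clu by 1.36 ± 0.14 with oAb and 1.28 ± 0.13 with fAb, while the ligand Apoe changed by -1.19 ± 0.37 with oAb and -1.69 ± 0.29 with fAb. The largest edgeR adjusted p of these 7 genes was 0.02369, for Apoe with oAb.

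Among the other scavenger receptors, the mannose receptor Mrc1 changed by -2.70 ± 0.29 with oAb and -2.52 ± 0.22 with fAb, and the lipopolysaccharide coreceptor Cd14 rose by 1.86 ± 0.17 with oAb and 1.702 ± 0.18 with fAb. Of the fatty acid binding proteins, Fabp3 rose by 2.98 ± 0.26 with oAb and 2.83 ± 0.27 with fAb, Fabp4 by 1.43 ± 0.15 with oAb and 1.63 ± 0.17 with fAb, and Fabp5 by 0.47 ± 0.13 with oAb and 0.59 ± 0.13 with fAb, the last with edgeR adjusted p of 0.0147 with oAb and 0.004635 with fAb. The summed TPM of the 8 receptors other than Cd68 was 461 to 507 in oAb libraries and 491 to 534 in fAb libraries, against 356 in scramble library 3 and 631 to 671 in the other scramble libraries.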
